A study of Homo sapiens with 8 samples.

Results

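The comparison described here is the knockdown of TAF7 in the parental line MDA-MB-231, an established human line from a triple-negative breast tumour of the mesenchymal (basal B) kind. Its members are all genes with enough reads to be tested, 15923 of the 61552 genes in the count table, measured in 2 libraries with a short hairpin RNA against TAF7 (shTAF7, genotype TAF7 knockdown) and 2 libraries with a control hairpin (genotype WT). All 4 libraries came from cells grown in DMEM with serum, and their mRNA was enriched and sequenced. The titles number the TAF7 hairpin 3 and the libraries of each group 2 and 3, so a single hairpin stands for the knockdown. The same hairpins were used in 4 libraries of MDA231-LM2 (LM2 below), a derivative of the parental line selected for growth in the lung, which serve as the comparison at the end. Whether libraries that share a group came from different cultures is not stated in the labels, and the p-values therefore reflect library-to-library spread alone, which may be technical.

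TAF7 belongs to TFIID, the multiprotein factor that recognises core promoters and starts the assembly of RNA polymerase II there. TFIID is built from TBP, which binds the TATA box, and a set of TBP-associated factors. TAF7 binds the largest of these, TAF1, and restrains its acetyltransferase activity until the polymerase is in place, and it is also known to bind the transcription kinases CDK7 and CDK9.

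Total counts in genes were 17663626 to 18918573 in the control libraries and 17217776 to 20292291 in the shTAF7 libraries. In what follows a level is given in CPM, counts scaled to a common library size with TMM factors, and the value of replicate 2 precedes that of replicate 3. Differences are log2 fold changes of shTAF7 over control ± the standard error of the edgeR fit, with n = 2 libraries per group, and a gene is said to have risen or fallen where the adjusted p of edgeR's quasi-likelihood test was under 0.05. Over the 9309 genes with at least 10 CPM, the median absolute log2 difference was 0.06 between the control libraries, 0.09 between the shTAF7 libraries and 0.16 to 0.19 between a control and a shTAF7 library. All 13 markers of MDA-MB-231 and basal B lines had enough reads, and together they took 99140 to 114932 counts a library. Of these 2 rose (15.4%) and 5 fell (38.5%), beside 12.6% and 12.9% of all genes. Of 15 luminal and mammary epithelial markers 11 had enough reads, and the list took 18877 to 23893 counts a library. Keratins KRT8 (8888 to 10820) and KRT18 (5222 to 7045) made up most of these, while CDH1 had 1 to 3. Of 20 leukocyte markers 9 were at 0 in all 4 libraries, and the whole list took 100 to 103 counts per control library and 92 to 106 per shTAF7 library. Markers of fibroblasts (13 genes) had 349 to 444 counts a library, and markers of endothelium (12 genes) 1598 and 1532 in the control and 1873 and 2039 in shTAF7. Most of the endothelial counts were of ENG (1064 to 1359 a library) and ESAM (378 to 526), while CDH5 had 1 to 3. In bulk RNA, fewer cells of a kind and less RNA per cell cannot be told apart.

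TAF7 had 179 and 185 CPM in the control and 108 and 105 CPM in shTAF7. The groups did not overlap, and 58.5% of the control level remained (-0.77 ± 0.07, edgeR adjusted p = 4.0e-12). Of the 17 tested TFIID subunits, 2 rose and 2 fell (11.8% each, beside 12.6% and 12.9% of all genes), and 13 were not called. TAF1, the binding partner of TAF7, had 41.0 and 37.0 CPM in the control and 25.9 and 26.9 CPM in shTAF7 (-0.56 ± 0.09). TAF9, a histone-fold subunit shared with the SAGA coactivator, went from 53 and 57.3 CPM to 72.3 and 74.2 CPM (0.41 ± 0.08). TAF12, another histone-fold subunit, went from 3.43 and 3.86 CPM to 5.60 and 6.2 CPM (0.70 ± 0.20), but was called in only 2 of the 4 fits that left out a MDA-MB-231 library. TBP stood at 34.2 and 31.4 CPM in the control and 30.3 and 30.8 CPM in shTAF7 (-0.10 ± 0.10, edgeR adjusted p = 0.482). The scaffold subunits TAF4 (-0.02 ± 0.07), TAF5 (-0.17 ± 0.09) and TAF6 (-0.08 ± 0.08) were not called either.

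**Figure D1:**
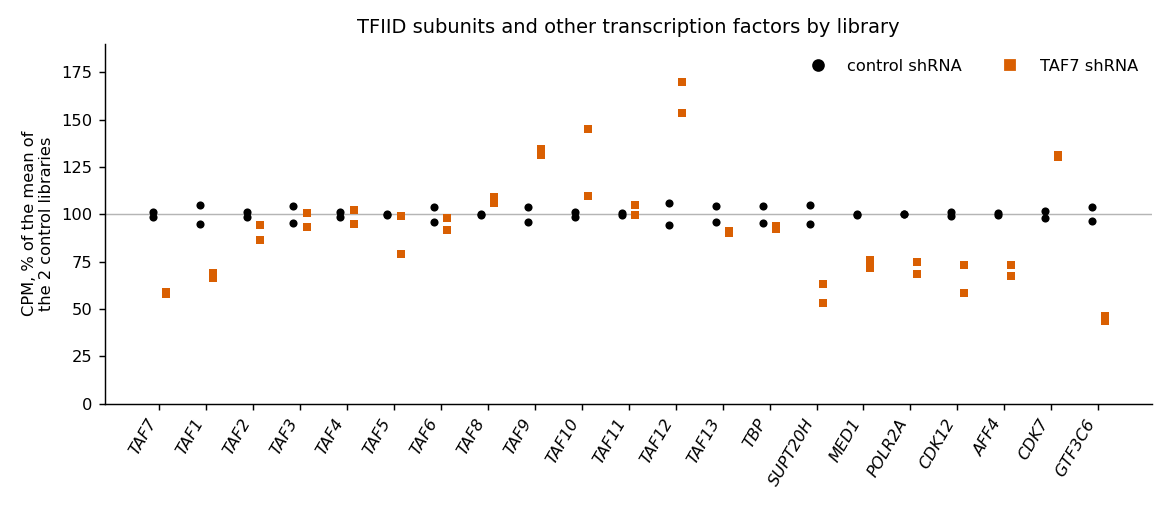
Level of 14 TFIID subunits and 7 other transcription factors in each library, as a percentage of the mean CPM of the 2 control libraries (vertical axis, from 0), with control libraries as circles and TAF7 shRNA libraries as squares. TAF7 and TAF1 lie below both control libraries and TAF9 and TAF12 above them, while most other subunits lie near the line at 100.

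Outside TFIID the shares called were near those over all genes for Mediator, the SAGA and ATAC coactivators and the general factors. They were larger for the transcription kinases (5 of 24 rose and 6 fell). For RNA polymerase II subunits only the share that rose was larger (4 of 12 rose and 1 fell). These larger shares depended on the setting. With a MDA-MB-231 library left out 1 to 4 kinase genes rose and 2 to 4 fell, and with limma on log2 FPKM 1 and 3. Of the polymerase subunits 1 to 3 rose with a library left out, 3 with limma and 1 with length and GC offsets. SUPT20H, a SAGA subunit, fell from 41.8 and 37.9 CPM to 25.2 and 21.2 CPM (-0.79 ± 0.10), and the SAGA component TRRAP by 0.32 ± 0.07. POLR2A, the catalytic subunit of RNA polymerase II, fell from 298 and 299 CPM to 223 and 205 CPM (-0.48 ± 0.07), and the small subunit POLR2H rose (0.36 ± 0.07). MED1, the Mediator subunit that contacts nuclear receptors, fell (-0.44 ± 0.07). Among kinases of the polymerase and their partners, CDK12 (-0.60 ± 0.08) and AFF4, the scaffold of the super elongation complex (-0.51 ± 0.07), fell, and CDK7, the kinase of TFIIH, rose from 60.1 and 62.5 CPM to 80.4 and 79.8 CPM (0.39 ± 0.07). GTF3C6, a subunit of the TFIIIC complex of RNA polymerase III, fell from 85.3 and 91.8 CPM to 38.4 and 41.2 CPM (-1.15 ± 0.08). Of 29 Mediator subunits 3 rose and 4 fell, of 22 SAGA and ATAC coactivators 3 rose and 4 fell, of 24 transcription kinases and partners 5 rose and 6 fell, and of 15 general factors beside TFIID 2 rose and 2 fell. These were 10.3% and 13.8% of Mediator and 13.6% and 18.2% of the coactivators, beside 12.6% and 12.9% of all genes. The medians of the 4 lists lay between -0.05 and 0.01, beside 0.01 over all tested genes.

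Of all tested genes 25.6% were called, 2013 higher (12.6%) and 2057 lower (12.9%), most of them by little. The median fold of a called gene was 1.27, and 379 genes rose and 274 fell by at least 1.5-fold. Called genes that were also called in each of the 4 fits without 1 MDA-MB-231 library, and whose groups did not overlap, numbered 607 higher (3.81% of tested genes) and 782 lower (4.91%), here termed stable calls. A stable rise or fall of at least 2-fold was found for 42 and 28 genes. The size of both sets moved with single libraries. Fits that left out control replicate 2 called 897 genes higher and 1134 lower, those that left out control replicate 3 called 1080 and 1199, and those that left out shTAF7 replicate 3 called 1274 and 1088. Over all 15923 tested genes, called or not, the groups did not overlap for 5011 that lay higher and 4683 that lay lower in shTAF7. Genes named below are stable calls unless stated otherwise, so groups without overlap were a condition for naming them.

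**Figure D2:**
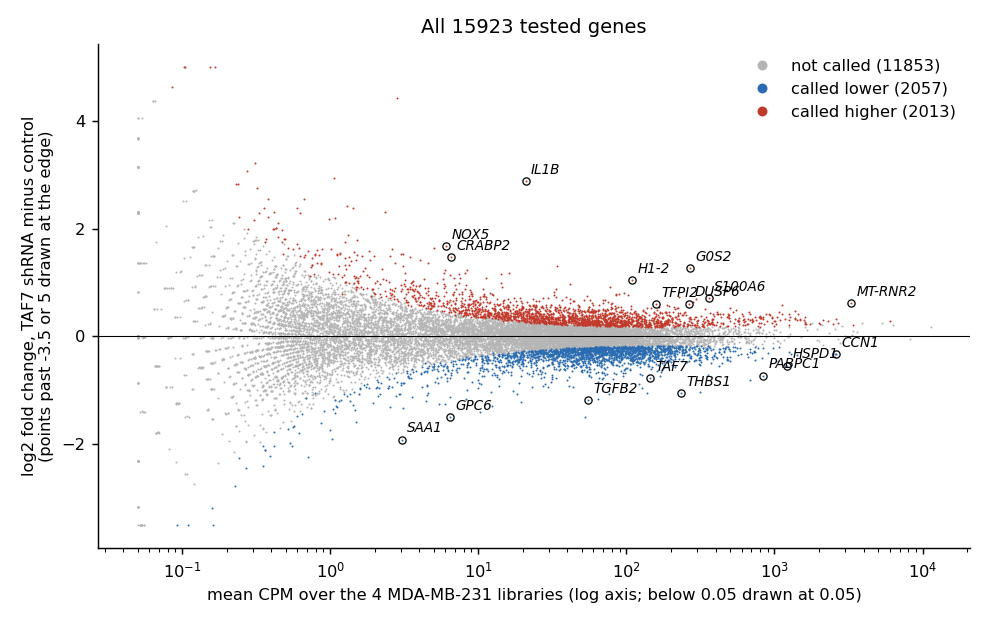
Log2 fold change of TAF7 shRNA over control (vertical axis) against mean CPM (horizontal log axis) for the 15923 tested genes, each a point, coloured by call (2013 higher, 2057 lower). Most called genes lie close to the line at 0, and the circled genes named in the text, such as IL1B at 2.88 and GPC6 at -1.49, stand away from it.

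The genes that rose most, with a mean of at least 5 CPM, included cytokine, oxidase and signalling genes. IL1B, the inflammatory cytokine interleukin-1 beta, had 4.99 and 4.98 CPM in the control and 36.9 and 36.7 CPM in shTAF7 (2.88 ± 0.11). NOX5, a calcium-activated NADPH oxidase, had 2.39 and 3.41 CPM in the control and 10.2 and 8.34 CPM in shTAF7 (1.67 ± 0.22). NOXA1, an activating subunit of the related oxidase NOX1, went from 3.64 and 3.47 CPM to 7.46 and 9.22 CPM (1.24 ± 0.19). Groups without overlap were a condition for picking both oxidase genes. CRABP2, which carries retinoic acid to the nucleus, rose from 3.59 and 3.41 CPM to 9.04 and 10.3 CPM (1.47 ± 0.17). TMEM158, a membrane protein induced by RAS signalling, rose from 19.6 and 19.2 CPM to 47.4 and 49.0 CPM (1.31 ± 0.09). The neuropeptide precursor VGF went from 6.19 and 3.75 CPM to 11.7 and 11.7 CPM (1.23 ± 0.17), so its control libraries differed from each other more than its shTAF7 libraries did. RASD1, a small GTPase induced by dexamethasone (1.18 ± 0.15), the microtubule-binding kinase DCLK1 (1.16 ± 0.11), the lipoprotein-associated trypanolytic factor APOL1 (1.14 ± 0.18) and the circadian repressor BHLHE41 (1.09 ± 0.17) were also among the 15 highest. HCLS1, GOLGA7B, CCDC146, ICAM1 and G0S2 completed that group.

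Of the genes with the most reads that rose by at least 1.5-fold, G0S2, an inhibitor of the triglyceride lipase ATGL, went from 160 and 158 CPM to 369 and 395 CPM (1.26 ± 0.07). The others were TM4SF1, a tetraspanin-like surface protein (0.70 ± 0.07), the calcium-binding protein S100A6 (0.71 ± 0.08), the myosin light chain MYL6 (0.73 ± 0.08), the mitophagy receptor BNIP3 (0.65 ± 0.07), the protease inhibitor TFPI2 (0.61 ± 0.07) and DUSP6, the phosphatase that switches off ERK (0.61 ± 0.07). The mitochondrial large ribosomal RNA MT-RNR2 had 2750 and 2455 CPM in the control and 3450 and 4542 CPM in shTAF7 (0.62 ± 0.10). Its level spread within the shTAF7 group, from 3450 to 4542 CPM, more than the control libraries did.

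The genes that fell most included surface, matrix and signalling genes. GPC6, a glypican of the cell surface, had 9.10 and 10.0 CPM in the control and 4.02 and 2.83 CPM in shTAF7 (-1.49 ± 0.20). MFAP3, a microfibril-associated protein, went from 78.6 and 77.4 CPM to 27.6 and 27.8 CPM (-1.49 ± 0.08). CCNE2, cyclin E2, went from 17.6 and 17.6 CPM to 7.93 and 6.49 CPM (-1.30 ± 0.14). MAPK6, the atypical kinase ERK3, fell from 98.8 and 107 CPM to 50.5 and 48.4 CPM (-1.06 ± 0.08). AMIGO2, an adhesion molecule with leucine-rich repeats, fell from 180 and 191 CPM to 95.9 and 84.2 CPM (-1.05 ± 0.07). That the groups do not overlap was a condition for picking these genes. The kinase CDK15 (-1.22 ± 0.12), filaggrin FLG (-1.40 ± 0.15), REL, TGFB2, VGLL3, THBS1 and GTF3C6 were also among the 15 lowest. NOMO2 (-1.07 ± 0.13) and NOMO3 (-1.13 ± 0.20) were picked too, but they are near-identical copies of one gene and their reads cannot be assigned with certainty.

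Of the genes with the most reads that fell by at least 1.5-fold, TFRC, the transferrin receptor for iron uptake, went from 861 and 880 CPM to 560 and 437 CPM (-0.81 ± 0.08). PABPC1, which binds the poly(A) tails of mRNAs, went from 1046 and 1037 CPM to 676 and 582 CPM (-0.73 ± 0.09). MAT2A, which makes the methyl donor S-adenosylmethionine, fell by 0.62 ± 0.07 on the log2 scale. THBS1, ANKRD1, the transcription factor EGR1, the helicase DDX21 and the cytokine IL11 are described with their groups below. For TFRC and PABPC1 the shTAF7 libraries differed from each other by more than the control libraries, with replicate 3 the lower.

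Few long non-coding RNAs changed. Of 758 tested lincRNA genes 4.22% rose and 3.30% fell, against 14.8% and 15.4% of 12888 protein-coding genes, and non-coding genes had fewer reads. The largest stable decreases were those of ENSG00000276850 (-1.26 ± 0.20) and ENSG00000276672, which fell from 22.3 and 23.7 CPM to 11.2 and 11.6 CPM (-1.01 ± 0.10). OIP5-AS1, a cytoplasmic RNA known as Cyrano that binds microRNAs, fell from 83.4 and 89.6 CPM to 46.7 and 53.5 CPM (-0.79 ± 0.08). The largest stable increases were those of SLCO4A1-AS1 (0.88 ± 0.16) and FEZF1-AS1 (0.71 ± 0.15). Both are antisense genes, and the strand setting of the counting is not given in the sources used here, so their reads cannot be told apart from those of overlapping genes.

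Both interleukin-1 ligands rose, while most other inflammatory ligands and receptors were not called or not stably so. IL1A, interleukin-1 alpha, had 1.35 and 1.73 CPM in the control and 5.01 and 4 CPM in shTAF7 (1.54 ± 0.26), beside the rise of IL1B. The receptor chains IL1R1 (0.04) and IL1RAP (0.22) and the adaptor MYD88 (0.04) were not called. Of 14 tested genes of the interleukin-1 family and its receptors 4 rose and 0 fell, with a median of 0.28. Of 21 chemokines and other cytokines 9 rose and 1 fell, with a median of 0.38, but only 1 rise was a stable call. The number that rose was 2 to 8 with a MDA-MB-231 library left out (2 without control replicate 3) and 0 with a minimum fold of 1.2 in the test. That was CXCL8, interleukin-8, which attracts neutrophils (0.31 ± 0.07). The gene that fell was IL11, a cytokine of the IL-6 family, from 210 and 212 CPM to 131 and 135 CPM (-0.66 ± 0.07). Of 12 inflammatory adhesion molecules, ICAM1 went from 10.6 and 9.12 CPM to 25.1 and 19.9 CPM (1.19 ± 0.12) and ICAM2 rose by 0.88 ± 0.23, while ALCAM fell (-0.29 ± 0.07). VCAM1 had no more than 2 counts in any of the 4 libraries and was not called.

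NF-kB subunits, the transcription factors downstream of interleukin-1, moved in both directions. REL, the subunit c-Rel, fell from 7.80 and 7.55 CPM to 3.50 and 2.98 CPM (-1.25 ± 0.19). NFKB2, the precursor of p52, rose from 63.3 and 68.5 CPM to 87.3 and 91.2 CPM (0.44 ± 0.07), and so did its partner protein BCL3 (0.64 ± 0.15). RELA (0.09) was not called. Of 26 NF-kB subunits and feedback inhibitors 6 rose (23.1%) and 4 fell (15.4%), beside 12.6% and 12.9% of all genes, with a median of 0.07. In the BCL2 family, BCL2A1, an antiapoptotic member, had 0.21 and 0.28 CPM in the control and 5.37 and 5.37 CPM in shTAF7 (4.43 ± 0.32), from 9 to 202 counts over the libraries of a group. The pore-forming relative BOK rose (0.49 ± 0.11), a call lost with length and GC offsets (0.26, edgeR adjusted p = 0.0587), and BCL2L13, a mitophagy receptor, fell (-0.33 ± 0.08). Over the 18 tested members 6 rose (33.3%) and 2 fell (11.1%).

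Part of the interferon-stimulated genes rose. Of 40 tested genes 19 rose (47.5%, against 12.6% of all genes), 0 fell, 21 were not called and 9 rises were stable, with a median of 0.32 and values down to -0.60. With a MDA-MB-231 library left out 12 to 17 rose. IFIH1, the RNA sensor MDA5, had 6.86 and 6.10 CPM in the control and 11.3 and 11.6 CPM in shTAF7 (0.82 ± 0.15). GBP2, a guanylate-binding protein, went from 39.6 and 40.7 CPM to 65.9 and 69.2 CPM (0.75 ± 0.08), and IFI44 from 29.8 and 28.5 CPM to 49.5 and 48.1 CPM (0.74 ± 0.09). Other members moved less, and MX1 (0.25), RSAD2 (-0.00), OAS2 (0.01) and IFIT2 (0.09) were not called. Among the signalling components the receptor chain IFNAR1 fell (-0.38 ± 0.08). IRF2, a repressor of interferon responses, rose (0.43 ± 0.10). Of the 24 interferon signalling genes 5 rose (20.8%) and 3 fell (12.5%), beside 12.6% and 12.9% of all genes.

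Antigen processing genes included rises in the immunoproteasome. PSMB9, a catalytic subunit, had 4 and 3.86 CPM in the control and 7.76 CPM in both shTAF7 libraries (0.98 ± 0.17). PSMB8 (0.55 ± 0.09) and the proteasome activators PSME1 (0.45 ± 0.07) and PSME2 (0.37 ± 0.07) rose as well, while the peptide transporter subunit TAP2 fell (-0.43 ± 0.07) and TAP1 was not called (0.06). Of 20 class I presentation genes 8 rose and 2 fell, with a median of 0.16. Among 33 subunits of the ordinary proteasome 6 rose (18.2%), among them PSMB3 (0.39 ± 0.07), and 3 fell (9.09%), not far from the shares over all genes. Of 16 actin regulators best known from leukocytes 5 rose (31.25%) and 1 fell (6.25%). LCP1, the actin bundler L-plastin, went from 22.5 and 25.4 CPM to 43.4 and 38.8 CPM (0.78 ± 0.09), and HCLS1 from 2.44 and 2.40 CPM to 7.93 and 7.27 CPM (1.64 ± 0.19). The leukocyte markers did not move with them, at 92 to 106 counts a library for the whole list.

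Most tested targets of YAP and TEAD fell. TEAD proteins bind DNA and, with the coactivators YAP and TAZ, which the Hippo kinases keep out of the nucleus, drive genes of growth, adhesion and matrix. Of 27 tested targets 18 fell (66.7%, against 12.9% of all genes), 2 rose and 7 were not called, 12 of the decreases were stable, and the median was -0.29. ANKRD1, a cardiac ankyrin repeat protein, had 420 and 419 CPM in the control and 202 and 208 CPM in shTAF7 (-1.03 ± 0.07). THBS1, the matrix glycoprotein thrombospondin 1, had 311 and 316 CPM in the control and 164 and 138 CPM in shTAF7 (-1.05 ± 0.07). TGFB2, transforming growth factor beta 2, went from 76.5 and 76.2 CPM to 36.0 and 31.6 CPM (-1.18 ± 0.08). In these 3 genes the level in shTAF7 was 44.1% to 48.8% of that in the control. WWC1, which is also a regulator of the Hippo pathway (-0.89 ± 0.12), the angiomotin relative AMOTL2 (-0.61 ± 0.08) and the LIM protein AJUBA (-0.58 ± 0.07) followed. The matricellular proteins CCN2, at 510 and 531 CPM in the control and 387 and 350 CPM in shTAF7 (-0.50 ± 0.07), and CCN1 (-0.33 ± 0.08) fell less. IGFBP3, an insulin-like growth factor binding protein, was the stable rise among them (0.47).

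Many tested components of the Hippo pathway fell as well, on both sides of it. Of 23 tested 13 fell (56.5%), 2 rose and 8 of the decreases were stable, with a median of -0.29. They included the atypical cadherin FAT1, from 257 and 248 CPM to 181 and 162 CPM (-0.56 ± 0.07), the kinases TAOK1 (-0.38 ± 0.07) and STK4, known as MST1 (-0.33 ± 0.07), and the membrane scaffold FRMD6 (-0.34 ± 0.07). On the transcription side VGLL3, a TEAD cofactor, went from 11 and 11.8 CPM to 4.43 and 5.66 CPM (-1.16 ± 0.16), and TEAD1 from 304 and 314 CPM to 234 and 249 CPM (-0.36 ± 0.07). YAP1 (-0.17) and WWTR1, the gene of TAZ (0.05), were not called. Genes of both lists were longer than average, with median exon lengths of 6051 bases for the targets and 8798 bases for the components against 4879 bases over all tested genes. With offsets for length and GC content 17 of the targets and 11 of the components still fell, with medians of -0.23 and -0.21. With limma on log2 FPKM 15 and 10 fell, and with a minimum fold of 1.2 in the test 8 and 2. With a MDA-MB-231 library left out the medians lay between -0.35 and -0.28 for the targets and between -0.32 and -0.26 for the components.

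**Figure D3:**
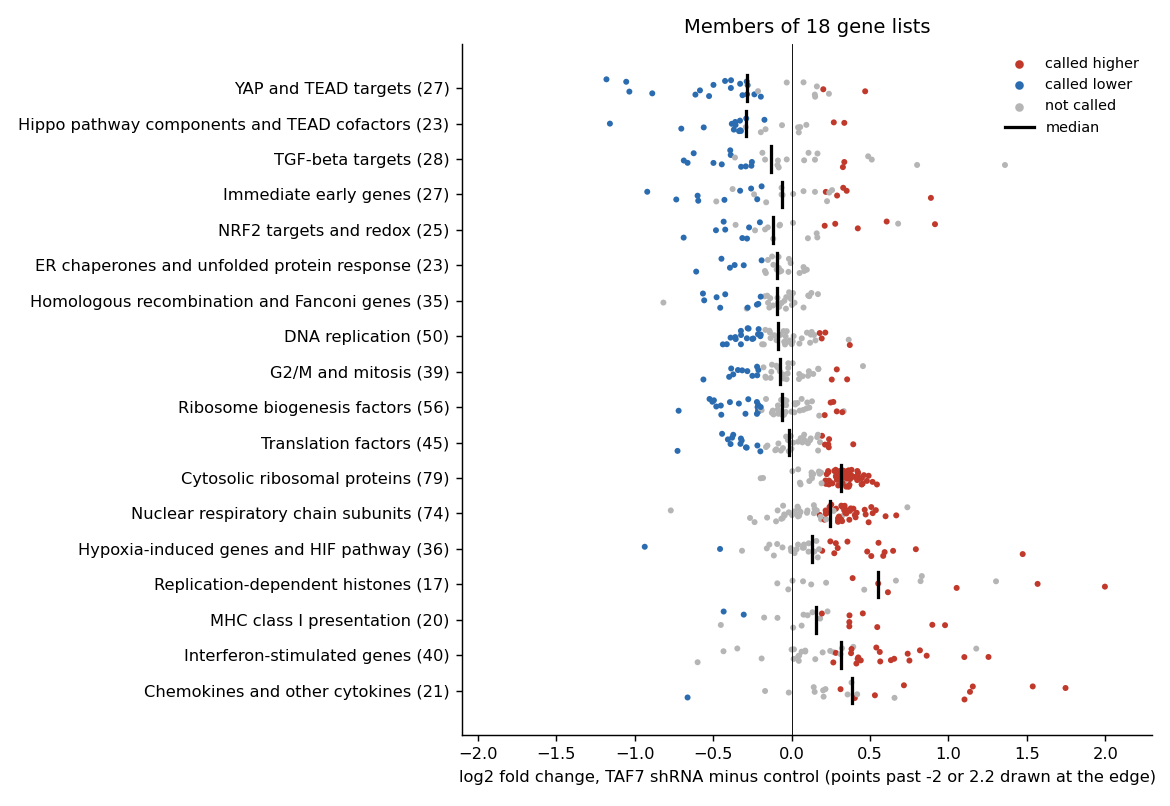
Log2 fold change of TAF7 shRNA over control (horizontal axis) for the tested members of 18 gene lists, each member a point coloured by its call, with a black bar at the list's median and the number of tested members in brackets. YAP and TEAD targets and Hippo components lie to the left of 0 (medians -0.29), and ribosomal proteins (0.31) and interferon-stimulated genes (0.32) to the right.

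The promoters of 4 of the targets that fell are shown because they hold the core of the TEAD motif, GGAATG, in the 250 bases before the start of the gene. They are from the RefSeq promoter table on GRCh38.p14, which covers 250 bases before to 50 bases after the start, and are written 5′ to 3′ along the gene. Capitals mark GGAATG, or CATTCC where it lies on the other strand, and the TATA box sequence TATAAA.
TGFB2, chr1:218345086-218345385, plus strand: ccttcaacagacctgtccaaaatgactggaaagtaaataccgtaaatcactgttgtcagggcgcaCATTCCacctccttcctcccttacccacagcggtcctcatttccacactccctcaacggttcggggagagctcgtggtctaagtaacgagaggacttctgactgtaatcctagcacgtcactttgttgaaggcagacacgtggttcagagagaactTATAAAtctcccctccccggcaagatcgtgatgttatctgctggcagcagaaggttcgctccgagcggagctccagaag
ANKRD1, chr10:90921038-90921337, minus strand: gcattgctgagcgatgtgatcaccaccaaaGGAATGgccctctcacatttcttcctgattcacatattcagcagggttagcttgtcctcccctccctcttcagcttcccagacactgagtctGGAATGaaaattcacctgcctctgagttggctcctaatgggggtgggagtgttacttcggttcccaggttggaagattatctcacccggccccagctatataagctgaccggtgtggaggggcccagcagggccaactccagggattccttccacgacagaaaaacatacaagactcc
THBS1, chr15:39580829-39581128, plus strand: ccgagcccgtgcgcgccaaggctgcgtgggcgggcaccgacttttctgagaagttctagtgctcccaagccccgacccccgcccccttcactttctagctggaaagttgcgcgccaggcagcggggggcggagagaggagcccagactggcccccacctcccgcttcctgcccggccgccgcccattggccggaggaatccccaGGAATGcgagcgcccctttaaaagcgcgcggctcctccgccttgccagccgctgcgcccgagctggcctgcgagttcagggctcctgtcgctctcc
CCN2, chr6:131951323-131951622, minus strand: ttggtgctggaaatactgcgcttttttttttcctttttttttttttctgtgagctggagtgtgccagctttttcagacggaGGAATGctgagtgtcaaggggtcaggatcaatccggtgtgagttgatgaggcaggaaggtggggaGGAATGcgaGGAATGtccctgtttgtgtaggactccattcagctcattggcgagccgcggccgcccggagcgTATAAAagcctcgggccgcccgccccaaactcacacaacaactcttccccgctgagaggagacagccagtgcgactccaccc
GGAATG began at -185 in TGFB2, at -220 and -128 in ANKRD1, at -46 in THBS1 and at -169, -104 and -95 in CCN2, counted from the first base of the gene with -1 just before it. TATAAA began at -29 in TGFB2 and at -32 in CCN2, and neither motif overlapped the other. Both strands were searched for each. GGAATG was held by 8 (38.1%) of the 21 tested YAP and TEAD targets with a listed promoter, against 10.9% of 11189 tested genes and 14% of all 27305 promoters in it. Part of that list is known through TEAD binding, so the share describes the list and not the knockdown. Over all stable calls GGAATG was in 12.5% of 626 promoters of genes that fell and 11.8% of 493 of genes that rose. TATAAA was in 6.55% and 9.13% of them, against 5.93% of tested genes. Of the other motifs searched, the E-box CACGTG was in 14.1% of promoters of genes that fell, 9.13% of those that rose and 9.82% of tested genes. The 4 promoters were chosen after their motifs were seen. A match is a run of letters and does not show that a factor binds there.

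In the pathway of transforming growth factor beta the ligand TGFB2 fell, as given above. The other ligands TGFB1 (0.06) and TGFB3 (0.24) and the receptors TGFBR1 (0.19) and TGFBR2 (-0.12) were not called. The inhibitory SMAD6, itself induced by the pathway, fell from 24.5 and 24.4 CPM to 15.4 and 13.9 CPM (-0.74 ± 0.13), and the latent-TGF-beta binding proteins LTBP1 (0.49 ± 0.08) and LTBP4 (0.46 ± 0.07) and the activin antagonist FST (0.57 ± 0.09) rose. Of 31 ligands, receptors and SMADs 4 rose and 11 fell, but only 3 of the decreases were stable and 4 to 7 genes fell with a MDA-MB-231 library left out. Of 28 target genes 11 fell, 2 rose and 6 of the decreases were stable, with a median of -0.13. The basement membrane collagen COL4A1 went from 91.7 and 92.1 CPM to 61.7 and 52.7 CPM (-0.69 ± 0.08), and its partner chain COL4A2 fell by 0.32 ± 0.07. Fibronectin FN1 (-0.39 ± 0.07) and TGFBI (-0.39 ± 0.07) fell too. Other matrix genes rose, among them the laminin chains LAMA4 (0.58 ± 0.12) and LAMA5 (0.43 ± 0.07), the collagens COL13A1 (0.44 ± 0.07) and COL6A2 (0.36 ± 0.07), and tenascin TNC, from 55.2 and 51.1 CPM to 86.7 and 83.1 CPM (0.67 ± 0.08). ITGB4, the integrin of hemidesmosomes, rose from 152 and 149 CPM to 234 and 218 CPM (0.58 ± 0.07).

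Matrix proteases and inhibitors moved in both directions. Of 34 tested 9 rose (26.5%), 5 fell (14.7%) and 5 of the rises were stable, with a median of 0.14, beside 12.6% and 12.9% of all genes. DESeq2 called 7 higher and 6 lower, and the median was 0.03 with limma on log2 FPKM. The inhibitors TIMP3, from 64.9 and 60.5 CPM to 103 and 88.3 CPM (0.60 ± 0.08), and TIMP1 (0.46 ± 0.08) rose, as did the membrane metalloproteinase MMP14 (0.38 ± 0.07) and the sheddase ADAM8 (0.70 ± 0.09). MMP16 (-0.66 ± 0.15) and ADAM9 (-0.42 ± 0.07) fell. Among epithelial and mesenchymal markers, vimentin VIM rose from 948 and 969 CPM to 1231 and 1332 CPM (0.42 ± 0.08), and the epithelial genes KRT19 (0.62 ± 0.08) and CLDN7 (1.06 ± 0.23) rose with it. ZEB2 (-0.15), SNAI2 (-0.19) and EPCAM (-0.35) were not called. Of the 20 genes of that list 3 rose and 3 fell (15% each, near the 12.6% and 12.9% of all genes), with a median of -0.02.

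Of 30 genes of MAP kinase feedback and EGFR ligands 3 rose (10.0%) and 5 fell (16.7%), near the shares over all genes (12.6% and 12.9%), and the genes named here are single calls. EGFR fell from 216 and 223 CPM to 166 and 157 CPM (-0.44 ± 0.07), and its ligand amphiregulin AREG rose from 20.9 and 22.9 CPM to 33.9 and 29.9 CPM (0.54 ± 0.11). Of the phosphatases that end MAP kinase signals, DUSP6 (0.61 ± 0.07) and DUSP5 (0.46 ± 0.07) rose and DUSP1 fell from 153 and 155 CPM to 99.5 and 89.7 CPM (-0.70 ± 0.07). Among immediate early genes EGR1 fell from 213 and 210 CPM to 122 and 132 CPM (-0.73 ± 0.07), FOSL2 (-0.43 ± 0.07) and FOSB (-0.60 ± 0.14) fell, and JUND rose from 24.2 and 22.5 CPM to 40.1 and 46.3 CPM (0.89 ± 0.10). Of 27 immediate early genes 5 rose (18.5%) and 9 fell (33.3%), with a median of -0.06. In the Notch pathway 3 of 22 genes rose (13.6%) and 5 fell (22.7%). The receptor NOTCH2 fell (-0.49 ± 0.07) and the effector HES4 rose (0.89 ± 0.20), the latter a call lost with length and GC offsets (0.47, edgeR adjusted p = 0.0779). In the WNT pathway, with 5 higher and 7 lower of 25, the coreceptor LRP6 (-0.34 ± 0.07) fell, and the receptor FZD8 (0.64 ± 0.14) and the target AXIN2 (0.81 ± 0.21) rose.

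More genes of DNA replication, repair and mitosis fell than rose, by small amounts, and most were not called. With a MDA-MB-231 library left out 7 to 18 replication genes fell. Of 50 replication genes 17 fell (34.0%) and 4 rose, with a median of -0.08 and 5 stable decreases, among them the helicase subunits MCM4 (-0.36 ± 0.07) and MCM6 (-0.32 ± 0.07) and the loading factor MCM10 (-0.36 ± 0.07). Of 35 genes of homologous recombination and the Fanconi pathway 9 fell (25.7%) and 0 rose, with a median of -0.09. BRCA1 went from 66.3 and 63.9 CPM to 45.1 and 43.1 CPM (-0.56 ± 0.08), BRCA2 from 58.6 and 59.7 CPM to 44.8 and 40.3 CPM (-0.48 ± 0.09), and FANCD2 (-0.46 ± 0.09), FANCB (-0.56 ± 0.13) and XRCC2 (-0.42 ± 0.09) fell too. PALB2, which links the BRCA proteins, was not called (-0.14). These are long genes, with a median exon length of 7574 bases, and with length and GC offsets 5 of the 35 fell. Of 39 G2/M and mitosis genes 11 fell and 3 rose, with a median of -0.07. FOXM1, the transcription factor of that programme, went from 177 and 178 CPM to 128 and 112 CPM (-0.56 ± 0.07), and the proliferation antigen MKI67 (-0.37 ± 0.08) and the cytokinesis proteins ANLN (-0.34 ± 0.07) and ECT2 (-0.39 ± 0.07) fell, while the ubiquitin conjugase UBE2C rose (0.35 ± 0.07). CCNB1 (0.11) and CDK1 (0.17) were not called.

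In G1, CCNE2 fell as described and its paralog CCNE1 was not called (0.02). The kinase CDK6 fell from 165 and 158 CPM to 131 and 112 CPM (-0.41 ± 0.07), and the kinase inhibitor p27, CDKN1B, rose from 60 and 61.3 CPM to 89.2 and 79.0 CPM (0.47 ± 0.08). CDKN1A, the p21 inhibitor, was not called (-0.03). Of 27 G1 genes 4 rose (14.8%) and 9 fell (33.3%), beside 12.6% and 12.9% of all genes, and 1 rise and 2 decreases were stable. Among 24 p53 targets 7 rose and 7 fell (29.2% each), with MDM2 lower (-0.53 ± 0.07) and TP53INP1 (0.94 ± 0.22) and GADD45A (0.41 ± 0.08) higher. MDA-MB-231 is known to carry a mutant p53. Of 17 replication-dependent histone genes 6 rose and 0 fell, with a median of 0.55, but only 3 rises were stable and DESeq2 called 2. The linker histone H1-2 rose from 70.3 and 72.3 CPM to 144 and 152 CPM (1.05 ± 0.08) and H2BC12 from 65.2 and 62.2 CPM to 96.7 and 98.4 CPM (0.61 ± 0.08). Most histone mRNAs lack a poly(A) tail and are caught only in part by mRNA enrichment.

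Most ribosomal protein genes rose, and most factors that build and use ribosomes were not called. Of 79 cytosolic ribosomal protein genes 62 rose (78.5%) and 0 fell, 34 of the rises were stable, and the median was 0.31. RPS29 went from 129 and 141 CPM to 203 and 190 CPM (0.54 ± 0.08) and RPL13A from 1128 and 1168 CPM to 1593 and 1610 CPM (0.48 ± 0.08). The list took 5.86% of the counts in the control and 7.10% in shTAF7. Of 56 ribosome biogenesis factors 18 fell (32.1%), 5 rose and 9 of the decreases were stable, with a median of -0.06. DDX21, a nucleolar helicase, went from 439 and 450 CPM to 290 and 250 CPM (-0.72 ± 0.07), the largest subunit of RNA polymerase I, POLR1A, from 139 and 144 CPM to 104 and 97.2 CPM (-0.49 ± 0.07), and the processome components WDR43 (-0.52 ± 0.07) and WDR36 (-0.51 ± 0.07) fell. Nucleolin NCL (-0.09) and NPM1 (-0.04) were not called. Of 45 translation factors 13 fell, 6 rose (14 and 10 with DESeq2), 26 were not called and 9 of the decreases were stable, among them PABPC1, EIF5 (-0.41 ± 0.07) and the release factor ETF1 (-0.39 ± 0.07), and EIF4EBP1, which holds back cap-dependent translation, rose (0.39 ± 0.07), a call lost with length and GC offsets (0.12, edgeR adjusted p = 0.169). Reads of ribosomal protein genes can be shared with their pseudogenes, and the median length of these genes, 3228 bases, was below that of all genes. With length and GC offsets 59 ribosomal protein genes still rose and 17 biogenesis factors fell, with medians of 0.27 and -0.10.

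Nuclear genes of the respiratory chain rose as well, 41 of 74 (55.4%) with 0 lower, 17 of them stable, and a median of 0.25. COX8A (0.54 ± 0.11) and COX5B (0.49 ± 0.08) of complex IV, UQCRQ of complex III (0.52 ± 0.10) and NDUFA1 of complex I (0.47 ± 0.08) led the stable rises. Of 76 mitochondrial ribosomal protein genes 20 rose and 0 fell, but only 3 of the rises were stable and the median was 0.13. Both lists hold short genes, with median lengths of 2658 and 2603 bases against 4879 bases over all tested genes. With length and GC offsets 37 respiratory chain genes rose and 1 fell, with a median of 0.20. Of the mitochondrial ribosomal protein genes 10 rose and 2 fell with the offsets, with a median of 0.08. The 13 mitochondrially encoded mRNAs had a median of 0.25, with 4 higher and none of these stable. That median depended on single libraries, at 0.43 at the highest and 0.01 at the lowest when 1 library was left out.

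Part of the genes induced by hypoxia rose. Of 36 tested genes of that list 14 rose (38.9%, against 12.6% of all genes), 2 fell, 20 were not called and 7 of the rises were stable (7 to 12 rose with a MDA-MB-231 library left out), with a median of 0.13. The carbonic anhydrase CA9 had 1.61 and 2.07 CPM in the control and 5.25 and 4.98 CPM in shTAF7 (1.47 ± 0.24). BNIP3 went from 221 and 219 CPM to 350 and 339 CPM (0.65 ± 0.07), the collagen cross-linker LOX from 47.4 and 43.2 CPM to 65.4 and 67.8 CPM (0.55 ± 0.08), and STC1 (0.59 ± 0.08), PFKFB4 (0.58 ± 0.09) and NDRG1 (0.51 ± 0.08) rose. HIF1A, the oxygen-regulated transcription factor, fell (-0.46) and its partner ARNT was not called (0.03). Of 21 glycolytic enzymes 8 rose and 0 fell, with ALDOC (0.58 ± 0.08) and ENO2 (0.48 ± 0.07) as the stable rises.

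In 3 groups of stress response genes more members fell than rose, although in the NRF2 and ATF4 lists the share that rose was also above the 12.6% of all genes. In the NRF2 pathway the regulator itself, NFE2L2, fell from 176 and 180 CPM to 134 and 121 CPM (-0.48 ± 0.07), and so did the cystine transporter SLC7A11, from 104 and 107 CPM to 66.6 and 64.0 CPM (-0.69 ± 0.07), the glutathione synthesis subunit GCLM (-0.43 ± 0.07) and thioredoxin reductase TXNRD1 (-0.42 ± 0.07). NQO1 (-0.07) and HMOX1 (0.16) were not called, AKR1C3 rose (0.91 ± 0.13), and of 25 genes 5 rose and 8 fell. In the list of 30 genes around ATF4 and amino acid supply 9 fell and 6 rose, with CHAC1 (-0.71 ± 0.12), ATF3 (-0.59 ± 0.12) and the transporter SLC7A5 (-0.41 ± 0.07) lower, CEBPB (0.56 ± 0.07) and SHMT2 (0.42 ± 0.07) higher, and ATF4 not called (-0.11). Of 23 genes for chaperones of the endoplasmic reticulum 6 fell (26.1%) and 0 rose. HYOU1, at 180 and 172 CPM in the control and 130 and 102 CPM in shTAF7 (-0.61 ± 0.09), and calnexin CANX (-0.45 ± 0.08) were lower. HSPA5, the sensor chaperone BiP, was not called (-0.08). Of the other chaperones HSPD1, the mitochondrial HSP60, fell from 1427 and 1445 CPM to 1000.0 and 974.5 CPM (-0.54 ± 0.07), HSPH1 fell (-0.55 ± 0.07) and the small heat shock protein HSPB1 rose (0.44 ± 0.07). SREBF1, a regulator of lipid synthesis, rose (0.39 ± 0.09), but of 29 cholesterol genes 4 rose and 4 fell (13.8% each, near the shares over all genes).

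Called genes shared features beyond their function. The share of genes called lower was larger among long genes and the share called higher larger among short genes, with length taken from the ratio of count to deposited FPKM, although most genes of any length were not called. With tested genes split by length into 5 equal bins, 1 the shortest, in bin 1 18.1% rose and 1.79% fell (median 0.17), and in bin 5 6.98% rose and 25.4% fell (median -0.10). Among genes with at least 10 CPM, bin 1 stood at -0.12 and -0.10 in the control libraries and 0.11 and 0.11 in the shTAF7 libraries, as median log2 deviations from the mean of the 4 libraries, so both libraries of each group showed the shift. Across genes the log2 fold change went with log length at Spearman's rho = -0.25 (15893 genes) and with GC content at 0.16 (15664 genes). Genes are not independent replicates, and the points share libraries. Of genes in the shortest length bin and the highest of 5 GC bins 28.0% rose, and of those in the longest and the lowest 26.6% fell. With offsets that remove the dependence on length and GC content from each library, 2037 genes rose and 1671 fell. These were in part other genes: 1561 of the 2013 that rose without the offsets and 1482 of the 2057 that fell kept their call. The part of this shift in the gene groups above was tested only through those offsets, and RNA quality was not measured.

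Chromosomes differed too. Of 378 tested genes on chromosome 22, 26.2% fell and 4.5% rose, with a median of -0.17, and of 276 on chromosome 13, 25% fell and 5.44% rose, with a median of -0.08. On chromosome 19, 20.5% of 1056 genes rose and 4.07% fell. The genes with at least 10 CPM were put in their order along each chromosome and divided into 231 blocks, mostly of 40 genes. All 5 blocks of chromosome 22, from the first at DUXAP8 to the last at RPL23AP82, had a median below 0, between -0.11 and -0.22, and with length and GC offsets between -0.08 and -0.20. In LM2 the medians of these blocks lay between 0.05 and 0.21. The 4 blocks of chromosome 13 had medians between -0.11 and -0.17, and the first 2 of chromosome 8, from FBXO25 to WRN, of -0.22 each, the third lay at -0.13, and the other blocks of chromosome 8 lay between -0.03 and 0.18. Over all blocks 29 had a median below -0.1 and 25 above 0.1. Among named genes on chromosome 22, MYH9, the heavy chain of non-muscle myosin (-0.34 ± 0.08), BCL2L13 and ZNRF3, which removes WNT receptors (-0.43 ± 0.10), fell, and TIMP3 and APOL1 rose. The source of these shifts was not tested.

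**Figure D4:**
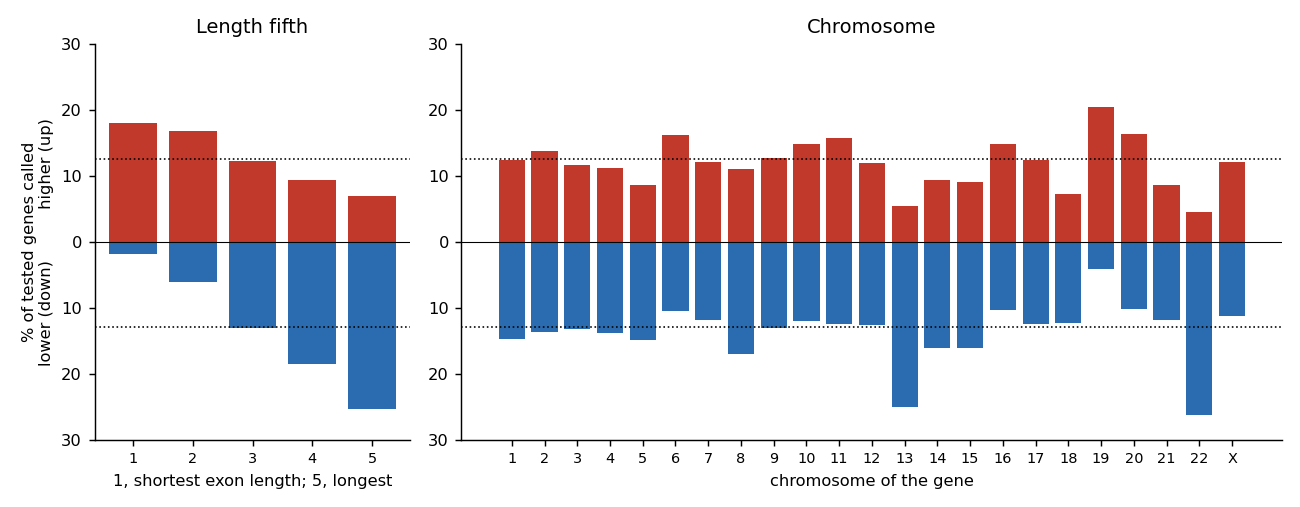
Percentage of tested genes called higher (bars up) and lower (bars down) by 5 equal bins of exon length (left, 1 the shortest) and by chromosome (right), with dotted lines at the shares over all genes, 12.6% and 12.9%. The share called lower grows from 1.79% to 25.4% from the shortest to the longest bin, and chromosomes 13 (25%) and 22 (26.2%) have the largest shares called lower.

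The knockdown effect differed between MDA-MB-231 and LM2 for 4113 genes (25.8% of tested genes) in the interaction test, which compares each line's effect with the other's and rests on separate controls. Of these the effect in LM2 was above that in MDA-MB-231 for 2221 and below it for 1892, although limma on log2 FPKM, which uses no TMM scaling, gave 998 above and 2096 below. In LM2 3478 of all 15923 tested genes rose and 3092 fell. Of the 2013 genes that rose in MDA-MB-231 983 also rose in LM2, 305 fell and 725 were not called there. Of the 2057 that fell in MDA-MB-231 654 also fell in LM2, 313 rose and 1090 were not called. Of the 15 highest genes of MDA-MB-231 7 fell in LM2, among them IL1B (-2.92 ± 0.07), ICAM1 (-1.92 ± 0.11), NOX5 (-1.49 ± 0.36) and APOL1 (-1.36 ± 0.18), while RASD1 (1.28 ± 0.09) and DCLK1 (1.24 ± 0.08) rose alike. Of the 15 lowest, 11 also fell in LM2 and 0 rose there, and 6 passed the interaction test, among them CCNE2 (an interaction value of 1.59). Of those that did not pass, TGFB2 (-1.24 ± 0.08), VGLL3 (-1.23 ± 0.15) and AMIGO2 (-0.98 ± 0.08) had interaction values of -0.06, -0.08 and 0.06, with edgeR adjusted p-values of 0.748, 0.854 and 0.72.

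**Figure D5:**
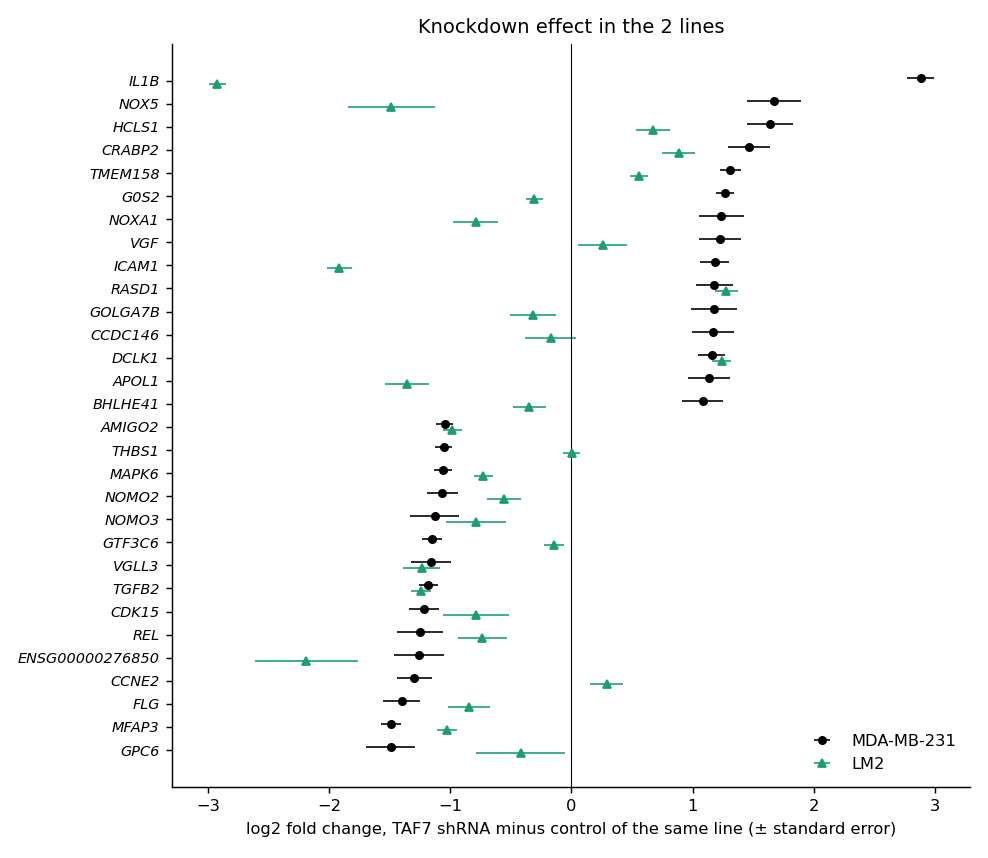
Log2 fold change of TAF7 shRNA over the control of the same line, ± standard error of the fit (n = 2 libraries per group), for the 15 highest and 15 lowest named genes of MDA-MB-231 (circles), with their values in LM2 (triangles). IL1B stands at 2.88 in MDA-MB-231 and -2.92 in LM2, whereas TGFB2, VGLL3 and AMIGO2 lie at nearly the same negative values in the 2 lines.

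The groups described above differed in how far they were shared. Over all 15923 tested genes 2221 had a higher and 1892 a lower effect in LM2, 25.8% together. Of the 40 interferon-stimulated genes 29 had a lower effect in LM2 by the interaction test, where the median was -0.61 against 0.32 in MDA-MB-231. Of the 21 chemokines and other cytokines 15 did, with a median of -1.95 in LM2. Among YAP and TEAD targets 15 of 27 had a higher effect in LM2, where the median was 0.00, and ANKRD1 (-0.01 ± 0.07) and THBS1 (0.00 ± 0.07) were not called there. Replication genes (35 of 50) and ribosome biogenesis factors (36 of 56) also had a higher effect in LM2, with medians there of 0.33 and 0.24. These list counts and medians come from the TMM-scaled fit. The TMM factors were 1.03 and 1.04 in the LM2 control and 0.96 and 0.93 in LM2 shTAF7. Over all genes, limma on log2 FPKM gave 998 above and 2096 below, so small shifts in LM2 depend on the scaling. Ribosomal protein genes rose in both lines, with medians of 0.31 and 0.33, and only 2 of 79 passed the interaction test.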

How the data were processed

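RNA from 8 samples, 2 libraries in each of 4 groups, was enriched for mRNA and sequenced. The aligner STAR 2.7.10a and the build hg19 are listed in the submitters' processing notes. No source used here names the counter, annotation or strand setting. The authors deposited raw read counts per gene and FPKM values per gene, per the file headers. Groups come from the labels.

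The counts as deposited were tested with edgeR 4.0.16 in R 4.3.3: genes with low counts were removed by filterByExpr, libraries were scaled by TMM, and quasi-likelihood models with 1 mean per group were fitted to all 8 libraries (4 residual degrees of freedom). P-values were adjusted by Benjamini-Hochberg over all 15923 tested genes, with a threshold of 0.05. Deposited FPKM values gave gene lengths and an alternative test with limma 3.58.1 on log2(FPKM + 1). DESeq2 1.42.0, other scalings and filters, offsets for length and GC content, and fits without 1 library were further alternatives. The scripts were tested on simulated data. GENCODE 29 matched 94.8% of the gene identifiers and gave names, types and gene order; since its build differs from hg19, no coordinates are taken from it.

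The members and gene lists were chosen with earlier results of these data known. Named genes were the tested TFIID subunits; the 15 highest and 15 lowest stable calls with a mean of at least 5 CPM; the 8 most abundant stable calls in each direction with a fold of at least 1.5; the 5 largest non-coding changes in each direction; up to 6 stable calls per list; and the 8 largest interactions of each sign. Some list members that are not among these are named to give a pathway's core. Precision is limited by 2 libraries a group and by depth, where 1 read was worth 0.0488 to 0.0583 CPM in MDA-MB-231. Libraries of a group differed beyond sampling noise, so none were merged. Some results are not reported here.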

Additional observations from a re-analysis of the deposited data

Results flagged for a closer look

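The knockdown effect differed between LM2 and MDA-MB-231 by edgeR's interaction test, with n = 2 libraries per group, for the following named genes, given as the effect in LM2 minus that in MDA-MB-231 on the log2 scale. TAF7 itself fell less in LM2, by a difference of 0.34. This difference ranged from 0.22 to 0.39 over the settings run, and it was not called without MDA-MB-231 control replicate 3 (edgeR adjusted p = 0.0513) or with a minimum fold of 1.2 (edgeR adjusted p = 0.286).

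The effect was higher in LM2 for CCNE2 (1.59), the actin cross-linker FLNC (1.57), ENSG00000276672 (1.57), the semaphorin receptor PLXNA2 (1.53), TMEM97 (1.29), SERTAD4 (1.26), MTCL1 (1.25) and ILDR2 (1.23). It was lower in LM2 for IL1B (-5.81), the stress cytokine GDF15 (-4.71), the vesicle fusion protein VAMP8 (-4.19), CXCL8 (-3.34), NOX5 (-3.16), ICAM1 (-3.1), APOL1 (-2.49) and the prostaglandin receptor PTGFR (-2.26). VAMP8 had 0.385 and 0.557 CPM in the LM2 control and 0 and 0.0528 CPM in LM2 shTAF7, so its value rests on few counts, and it ranged from -6.48 to -0.934 over settings. These genes were picked for the size of this difference.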

How the results depend on the processing

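Requiring a change beyond 1.2-fold in the test left 336 genes higher and 334 lower, and limma on FPKM left 998 genes with a higher effect in LM2. Leaving out 1 library at a time gave 897 to 2020 genes higher, 1088 to 2388 lower, 1556 to 2458 with a higher and 1377 to 1756 with a lower effect in LM2. DESeq2 called 1430 higher and 1704 lower. TAF7 lay between -0.756 and -0.802 over the settings run. With a replicate block 2015 genes rose and 2038 fell, and 2220 and 1908 had a higher and a lower effect in LM2. Same-numbered libraries of different groups deviated together at correlations of -0.062 to 0.021, so the numbers are not treated as pairs. Among all called genes 13 turned sign with length and GC offsets and 3 without shTAF7 replicate 3, and 5 of 58 list medians turned sign with the offsets (TFIID subunits from -0.05 to 0.03). Among named genes signs turned for 4 TFIID subunits that were not called: TAF3 between -0.118 and 0.018 with a MDA-MB-231 or LM2 library left out (0.007 without shTAF7 replicate 3) and at 0.065 with length and GC offsets, TAF4 between -0.07 and 0.021 and at 0.029 with offsets, TAF11 between -0.018 and 0.068, and TAF15 at 0.116 with offsets. Over 18 settings, 4615 values of 264 named genes kept their direction and their side of the threshold, 120 lost their call and 3 gained one. Of list medians 778 kept within the spread between replicates and 208 moved. The causes were not tested. Genes of few reads, where 1 read is a large part of the level, were limited by depth.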
